A study of Diospyros lotus with 24 samples.

Results

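Of 417827 contigs counted in bud mRNA of the dioecious persimmon Diospyros lotus, 41 were nearly confined to male trees. A contig is a stretch of transcript sequence assembled from the reads without a genome. The 41 were chosen from the measured counts themselves: each had at least 1 count in 7 or more of 9 male libraries, at least 15 counts summed over the males, and at most 5% of its level in the females. The level is the count scaled to a common library total (CPM), and the female share is the part of the CPM summed over all 19 libraries that the 10 female libraries held. Because the male and female counts made the choice, the difference between the sexes on these contigs is given as a description without a test.

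The libraries came from mixed buds of the cultivar Kunsenshi, taken during early differentiation of the primordia. The male group held 8 sons from the KK population and their father, the female group held 9 daughters and the mother, and each tree gave 1 library. A further son, male replicate 5, held 387 counts on 224 contigs and was left out. None of the labels names a mutant, a transgene or a treatment. By the labels the male and female groups differ in sex, and each holds progeny and 1 parent. Sampling is dated to June and July, stages tied to male and female primordia in turn, with no library tied to a date, so sampling date and sex cannot be told apart. Bulk buds hold many cell types, and fewer cells of a type and less RNA per cell cannot be told apart either.

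Persimmons of this species carry an XY system in which males are heterogametic. In the known model of the pathway, the Y-encoded locus OGI is transcribed into a hairpin that yields small RNA. That small RNA lowers the autosomal homeodomain gene MeGI, which favours female flowers, and so permits male ones. A contig copied from a stretch found only on the Y chromosome and a contig of a shared gene expressed only in male buds would look alike in these counts and cannot be told apart here. No gene name or sequence stands beside a contig in the tables used, and of 27971 RefSeq genes annotated on assembly ASM1463336v1, 0 shared an ID with a contig. Neither OGI nor MeGI can therefore be matched to a contig, no role is given to any member, no marker of buds could be checked against the labelled tissue, and no chromosome is known.

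In the 19 libraries the total ran from 3527282 to 15314430 counts. The 9 males held 73492853 counts together and the 10 females 54998893. A count of 0 over all females allows up to 0.0545 CPM (3 counts over the group). PCR copies of a molecule could not be told from separate molecules, so this floor and every interval given here cover counting error only. Male replicate 6, a son, was the deepest library, and it stood apart in a way that touches the comparison with females further on.

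Level was spread very unevenly among the 41 contigs. Together they held 7979 counts in males and 78 in females. Contig333146DeNovoAssembly alone held 31.6% of the members' summed male CPM, the first 2 held 56.1%, the first 4 held 71.6% and the first 12 held 88.3%. A mean of 1 CPM or more in males was reached by 12 members, while 29 stayed under 1 CPM. Counts were therefore ample for a few members and thin for most: 10 members had at least 3 counts in every male, and 30 had a mean under 10 counts per male library.

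In every male library most members were counted. The number with at least 1 count ran from 35 to 41 with a median of 37 in the 9 males, against 2 to 4 with a median of 3 in the 10 females. Summed over the members, the level was 89.6 to 141 CPM with a median of 102 in males and 0.851 to 2.36 CPM with a median of 1.36 in females. The ranges did not overlap, which the choice of members had fixed. Without the 2 most abundant members the sums were 37.4 to 54.8 CPM in males and 0.161 to 1.50 CPM in females, a contrast that the choice of members fixed as well. Of the 41, 18 were counted in 9 of 9 males, 13 in 8 and 10 in 7, which leaves 33 zeros among the members' male values. The shallow male replicate 5 had 2 counts on 1 member, Contig284187DeNovoAssembly.

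**Figure D1:**
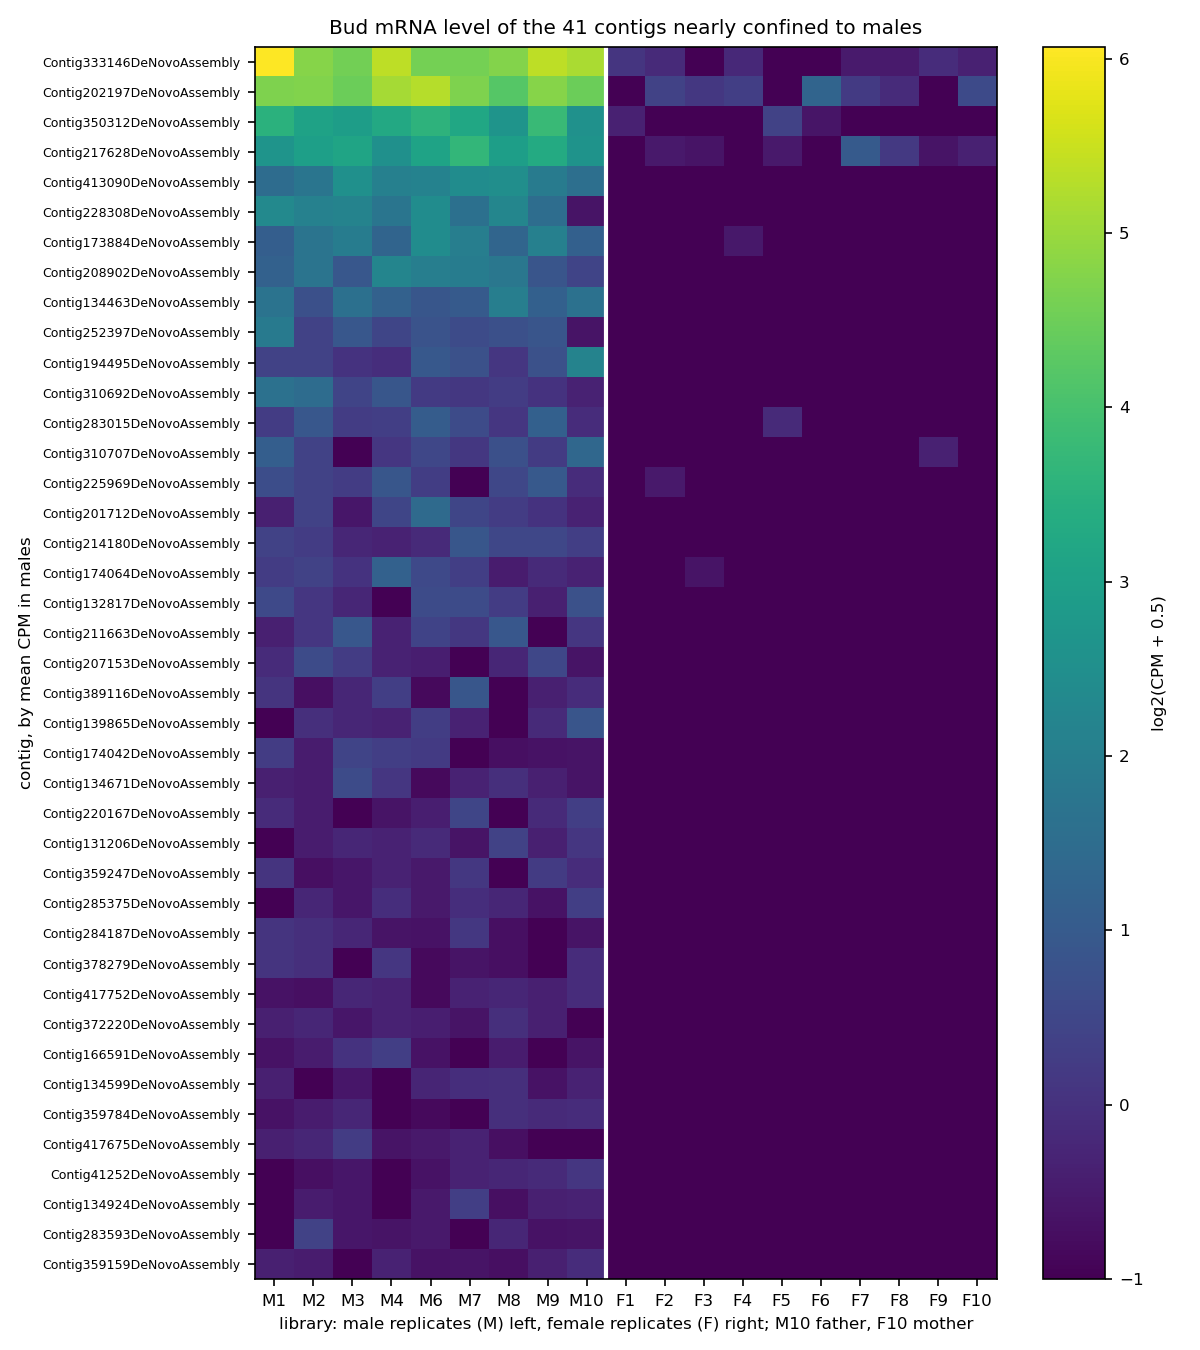
Level of the 41 contigs as log2(CPM + 0.5), 1 row per contig in the order of mean CPM over males and 1 column per library, with 9 males on the left and 10 females on the right. The first 4 rows are bright in every male, most rows below the first 12 are dim, and the female side is at 0 but for 9 rows.

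Contig333146DeNovoAssembly, 997 bases long, was the most abundant member at 34.1 ± 14.1 CPM (SD, n = 9) in males. Male replicates 1, 2, 3, 4, 6, 7, 8, 9 and 10 had 66.5, 26.9, 23.2, 40.3, 23.6, 23.4, 26.4, 40.3 and 35.8 CPM. Male replicate 1 was far above the other 8 males, which kept within 23.2 to 40.3 CPM. Among females 7 of 10 had some of it, 13 counts in all and at most 0.567 CPM, a female share of 0.804%. No male library fell near a female one: the lowest male held 135 counts and the highest female 3.

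Contig202197DeNovoAssembly, at 4460 bases the longest member, stood at 26.4 ± 6.33 CPM (SD, n = 9). Male replicates 1, 2, 3, 4, 6, 7, 8, 9 and 10 had 25.6, 25.9, 21.8, 33.9, 38.5, 25.5, 17.9, 26.9 and 21.6 CPM, the steadiest of the first 4 members relative to its mean. In females the counts were 0, 4, 4, 4, 0, 12, 3, 2, 0 and 7 in replicates 1 to 10, a share of 2.53%. Female replicate 6 was the highest female at 1.94 CPM, far below the lowest male at 17.9 CPM.

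Contig350312DeNovoAssembly, 590 bases, stood at 8.88 ± 2.67 CPM (SD, n = 9). Its counts in male replicates 1, 2, 3, 4, 6, 7, 8, 9 and 10 were 80, 68, 42, 61, 174, 59, 50, 101 and 37, and the level ran from 5.41 CPM in the father to 13.4 CPM in male replicate 9. Only female replicates 1, 5 and 6 had counts, of 1, 4 and 1, a share of 1.54%. Contig217628DeNovoAssembly, 1168 bases, stood at 7.74 ± 2.16 CPM (SD, n = 9), with 5.36 CPM in the lowest male and 12.2 CPM in the highest. By its female share of 4.28% it was the leakiest of the abundant members. In it 7 of 10 females had counts, 16 in all, 7 of them in female replicate 7. These 4 abundant members held 71 of the 78 female counts, or 91.0%.

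The female counts thus lay mostly on the members with the most male counts, and below those 4 they nearly vanished. Of the 41 members, 32 had 0 counts in every female, 5 had 1 or 2 counts and 4 had at least 3. Contig413090DeNovoAssembly, 350 bases, had 17, 25, 31, 25, 60, 33, 44, 25 and 17 counts in male replicates 1, 2, 3, 4, 6, 7, 8, 9 and 10 and 0 in the females. Its male mean of 3.78 ± 1.13 CPM (SD, n = 9) was at least 69.3-fold higher than the floor over the female group. Contig228308DeNovoAssembly, 1756 bases, was at least 59.9-fold higher on the same reckoning, at 3.26 ± 1.47 CPM (SD, n = 9), although its father's library had 1 count.

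The next members were lower. Contig173884DeNovoAssembly, 835 bases, stood at 2.86 ± 1.12 CPM (SD, n = 9) with 1 count in female replicate 4. Contig208902DeNovoAssembly, 916 bases, had 2.47 ± 1.16 CPM and Contig134463DeNovoAssembly, 502 bases, 2.12 ± 0.803 CPM (SD, n = 9 each), with 0 counts in females and male means at least 45.4-fold and 38.9-fold higher than the floor. In both, every male held at least 6 counts.

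In 3 further members the male trees differed severalfold. Contig252397DeNovoAssembly, 211 bases and the shortest member, had 3.17 CPM in male replicate 1, 0.146 CPM in the father and 0.809 to 1.37 CPM in the other 7 males. Contig194495DeNovoAssembly, 1570 bases, was high in the father instead, at 3.95 CPM, against 0.447 to 1.44 CPM in the 8 sons. Contig310692DeNovoAssembly, 745 bases, had 2.62 and 2.31 CPM in male replicates 1 and 2 and 0.292 to 1.34 CPM in the others. All 3 had 0 counts in females, and their male means of 1.24 ± 0.814, 1.22 ± 1.08 and 1.10 ± 0.828 CPM (SD, n = 9 each) were at least 22.7-fold, 22.3-fold and 20.2-fold higher than the floor.

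The remaining 29 members lay between 0.212 and 0.985 CPM, with 15 to 78 counts summed over the males. Of these, 25 had 0 female counts and 6 were counted in all 9 males. Nearest to the limit on the inside were Contig217628DeNovoAssembly with a female share of 4.28% and Contig283015DeNovoAssembly with 4.35%. Just outside lay Contig272903DeNovoAssembly at 5.64% and Contig359368DeNovoAssembly at 5.81%, each with 1 female count against 18 and 19 male counts, so a single read decides the place of a thin contig.

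Long contigs collect more reads than short ones at equal abundance, and per 1000 bases the order of the first members changed. Contig333146DeNovoAssembly still led at 34.2 CPM per kilobase. Contig350312DeNovoAssembly came next at 15.1 and Contig413090DeNovoAssembly at 10.8 CPM per kilobase, and the long Contig202197DeNovoAssembly fell back to 5.92 CPM per kilobase. The short Contig252397DeNovoAssembly, at 5.88 CPM per kilobase, stood beside it. Over all members the median length was 566 bases, from 211 to 4460, and 6 of 41 reached 1000 bases (14.6%). The contigs that met the count parts of the rule had a median of 789 bases with 40.7% at 1000 or more, and all contigs of the mRNA table a median of 311 bases with 13.1%. By their median the members were thus shorter than the contigs that met the count parts and longer than contigs in general, a difference that was not tested.

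Lists of this kind need the background of the rule. The count parts were met by 123669 contigs, whose median female share was 52.8%, and the 41 members were 0.0332% of them. The share was 0 in 32 contigs, over 0 to 1% in 2, over 1 to 5% in 7 and over 5 to 10% in 20. Most members therefore lay at 0, few contigs lay between 0 and 5%, and the numbers grew above 5%. A fit of males against females over all contigs (edgeR's quasi-likelihood test, Benjamini-Hochberg adjusted p under 0.05) found males above females in 7 of 63600 tested contigs, 0.0110%, and females above males in 15. The numbers were 6 and 17 without male replicate 6, and 15 and 45 with DESeq2. Only 6 of the 41 members passed its filter on low counts, and those 6 were called, which the choice of members had fixed. With no filter it called 81 of 417827 contigs in the male direction, 0.0194%, 24 of which were members, from which nothing is read either.

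**Figure D2:**
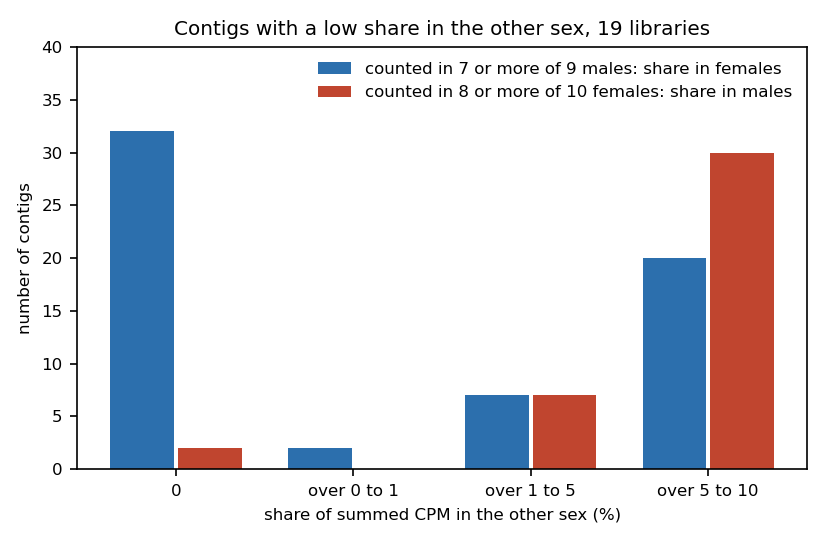
Number of contigs by the share of their summed CPM held by the other sex (percent), for contigs counted in 7 or more of 9 males (blue) and in 8 or more of 10 females (red), shares up to 10% only. At a share of 0 stand 32 contigs of the male rule and 2 of the female rule; over 5 to 10% the numbers are 20 and 30.

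The mirror rule asked for counts in 8 or more of 10 females, at least 15 counts summed over them and at most 5% of the CPM in males. It found 9 of 111362 contigs that met its count parts, 0.00808%. This number rests on male replicate 6: with that library left out of both rules the female list held 41 contigs and the male list 38, 33 of them members. Of those 41 female contigs, 37 had a count in male replicate 6, and in 13 of them its CPM was above the female mean. Contig260780DeNovoAssembly, 223 bases, was chosen here after its values were seen. It had 150 counts (9.79 CPM) in male replicate 6 and 1 to 7 counts in each of the other 8 males. In females it stood at 12.1 ± 9.65 CPM (SD, n = 10), unevenly, with 0 counts in female replicate 1 and 1 count in female replicate 6. The next contigs of that list by female mean, Contig212478DeNovoAssembly and Contig404517DeNovoAssembly, were also chosen after their values were seen. They had 43 and 35 counts in male replicate 6, 0 to 1 in each other male and 0 in female replicates 1 and 6. Male replicate 6 also had a count on all 41 members, with 1789 counts together. Scaled to its depth they summed to 117 CPM, within the range of 89.6 to 141 CPM over the 9 males. Whether this library mixes RNA of more than 1 tree or is mislabelled was not tested, and the male means and SDs of the members include it.

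The asymmetry of 41 against 9 therefore cannot be read from the numbers of contigs alone. The levels on the female list also rest on male replicate 6. In all 19 libraries the 9 mirror contigs had female means of 0.298 to 0.751 CPM with a median of 0.334, and the members had male means of 0.212 to 34.1 CPM with a median of 0.458. Without male replicate 6 the 41 contigs of the female list had female means of 0.266 to 12.1 CPM with a median of 0.483 and 7 at 1 CPM or more, beside a median of 0.526 CPM in males and 12 at 1 CPM or more on the male list of 38. Without that library the medians thus lay close together, while the highest mean was 35.4 CPM on the male list and 12.1 CPM on the female list. The highest of the 9 mirror contigs were Contig222442DeNovoAssembly at 0.751 ± 0.731 CPM, Contig102182DeNovoAssembly at 0.710 ± 0.520 CPM and Contig201112DeNovoAssembly at 0.448 ± 0.285 CPM (SD, n = 10 each). Contig27363DeNovoAssembly followed at 0.401 ± 0.304 CPM and Contig236307DeNovoAssembly at 0.334 ± 0.292 CPM. Of the 9, 2 had 0 male counts and 0 were counted in every female. With at least 90 counts required in place of 15, a setting chosen after seeing the data, 11 contigs remained on the male list and 0 on the female list. Without male replicate 6 these became 9 and 3. How many contigs of each sex reach 90 counts is not given beside them, so no asymmetry is read from these numbers either. The males' counts were also deeper, and a minimum scaled to the females' depth (11.2 counts) gave 13 contigs on the mirror list.

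The parents offered libraries that a choice made in progeny alone had not used. In the 8 sons and 9 daughters the male rule found 57 contigs, 36 of them members. In the parents 41 of the 57 were higher in the father than in the mother, 10 were higher in the mother and 6 were at 0 in both. The father held 667 counts on them and the mother 65. Of the 57, 19 had at least 3 counts in the father and 0 in the mother. With at least 30 counts in the sons, 21 of 23 were higher in the father; the exceptions were Contig357534DeNovoAssembly, higher in the mother, and 1 contig at 0 in both. Contigs with at least 30 counts in the sons mostly lay higher in the father, and thinner ones often did not. Some of the 21 rest on 1 or 2 counts in the father against 0 in the mother. Examples are Contig228308DeNovoAssembly with 1 count and Contig310692DeNovoAssembly with 2. No share of all contigs higher in the father is given beside these numbers, so they are a description only. From the daughters' side 8 contigs were found, of which 7 were higher in the mother, with 26 counts against 7. With 1 tree per sex no test was made.

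For the male list, leaving out each library in turn and looking up the contigs chosen without it gave the same order. In the left-out male, 60.4 to 86.8% of the contigs had a count, with a median of 70.2%. In the left-out female this share was 7.14 to 36.7%, with a median of 16.3%, and the groups did not overlap. The summed level was 87.3 to 140 CPM in left-out males and 2.27 to 11.6 CPM in left-out females. The mother was the highest female: 60 contigs were chosen without it, and 22 of them had a count in it. The choices made without different libraries share most of their contigs, so these values are not independent of each other. On the mirror list, of 5 to 41 contigs, the groups overlapped. In the left-out female 25 to 100% of its contigs had a count, with a median of 40.8%. In the left-out male the share was 27.3 to 90.2%, with a median of 35.7%. No share of all contigs with a count in the left-out library is given beside these values.

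**Figure D3:**
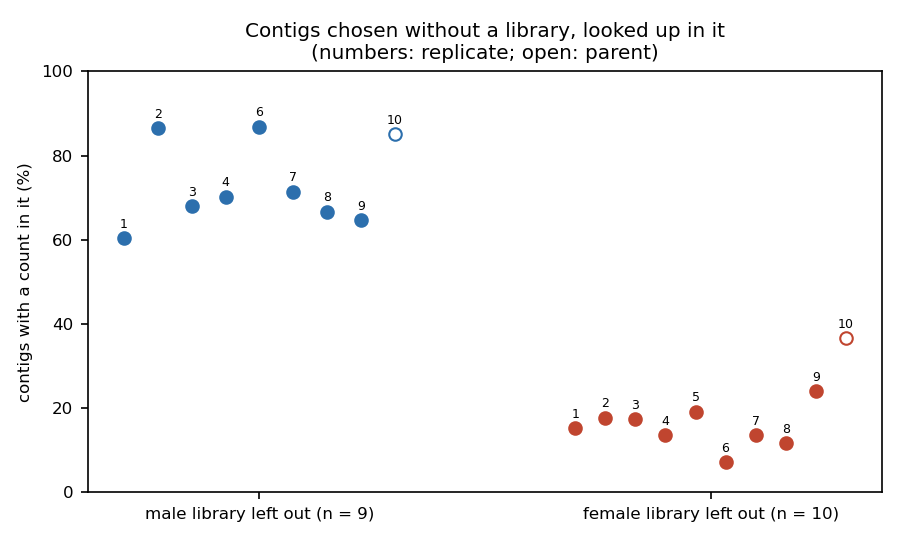
Percent of the contigs chosen without a library that had a count in that library, for 9 male libraries (blue) and 10 female libraries (red), with the replicate number beside each point and parents as open circles. The contigs are those of the male rule. All males lie at 60.4% or above and all females at 36.7% or below, with the mother highest.

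Within the males, the father's library was set against the 8 sons, a contrast the rule did not use. Of 141016 contigs tested with edgeR's quasi-likelihood test at an adjusted p under 0.05, 4224 (3.0%) were higher in the father and 5177 (3.67%) lower. Among the 41 members 1 was higher and 1 was lower, numbers of the order that these shares give. Since 1 library stands for the father, the spread comes from the sons, and tree and generation cannot be told apart. With RLE factors in place of TMM factors the median over all contigs moved up by 0.114 on the log2 scale, and the calls split into 5312 higher and 3889 lower, against 4224 and 5177. Both calls on members passed with RLE factors too, at adjusted p = 0.0201 and 0.00377 in edgeR. Members' median log2 fold change was -0.33, with 19 above and 22 below 0, beside a median of -0.03 over all contigs tested.

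Contig194495DeNovoAssembly was the member higher in the father, with 27 counts (3.95 CPM) against 0.875 ± 0.364 CPM (SD, n = 8) in the sons. Its log2 fold change was 2.11 (SE 0.56, edgeR adjusted p = 0.0274), the father lay above 8 of 8 sons, and with no filter on low counts the call was lost (adjusted p = 0.0609). Contig228308DeNovoAssembly was the member lower in the father, with 1 count (0.146 CPM) against 17 to 75 counts and 3.65 ± 0.953 CPM (SD, n = 8) in the sons. Its log2 fold change was -4.53 (SE 0.85, edgeR adjusted p = 0.00310), and the father lay below 8 of 8 sons. With 1 count behind it, the size of that change is poorly fixed. Contig252397DeNovoAssembly also had 1 count in the father and a log2 fold change of -3.11 (SE 1.15) that did not pass (edgeR adjusted p = 0.113). The 4 most abundant members had log2 fold changes of 0.07, -0.33, -0.80 and -0.50, all with an adjusted p above the threshold in the same edgeR fit.

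**Figure D4:**
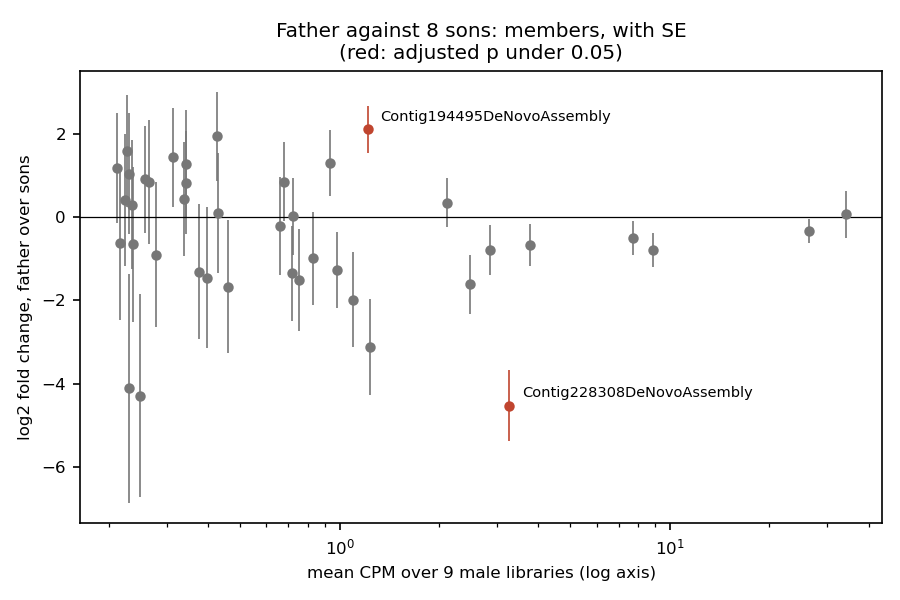
Fitted log2 fold change of the father over the 8 sons (vertical, bars are 1 SE) against mean CPM over 9 male libraries (log axis) for the 41 members. The points in red, Contig194495DeNovoAssembly at 2.11 and Contig228308DeNovoAssembly at -4.53, passed the adjusted threshold, and the bars widen toward low CPM.

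The spread of the members between sons was larger than that of contigs in general and near the trend for their abundance. Their median biological coefficient of variation, the fitted spread between sons beyond counting error, was 49.7%, against 38.1% over all contigs tested. Relative to the trend at the same abundance the median ratios were 0.935 and 0.902, and 11 of 41 members lay above the trend, beside 48705 of 141016 contigs tested.

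Across male trees the members showed no shared rise and fall at this depth. Over 820 pairs of members the median Pearson r of log2(CPM + 0.5) in 9 males was -0.02, with 5 to 95% of pairs between -0.65 and 0.57. For thin members counting error alone can flatten r. Among the 11 members with a mean of at least 10 counts per library, the 55 pairs had a median of 0.10, and these members against 69287 other contigs of such a mean had 0.05. Of the 66 pairs among the 12 most abundant members, 0 had an adjusted p under 0.05 and 6 had an unadjusted exact permutation p under 0.05, 3 positive and 3 negative.

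Contig217628DeNovoAssembly and Contig173884DeNovoAssembly had the lowest p for Pearson's r. Their r was 0.77 (two-sided exact permutation p = 0.0159, adjusted p = 0.455) and their Spearman rho 0.82 (exact permutation p = 0.0108, adjusted p = 0.304). With the 2 libraries farthest from the median left out, r was 0.84. The lowest p for Spearman's rho belonged to Contig202197DeNovoAssembly and Contig350312DeNovoAssembly, with rho = 0.83 (exact permutation p = 0.00827, adjusted p = 0.304) and r = 0.70 (exact permutation p = 0.0345, adjusted p = 0.455), or r = 0.53 without the 2 farthest libraries. Contig333146DeNovoAssembly and Contig413090DeNovoAssembly went opposite ways, with r = -0.73 (exact permutation p = 0.0242, adjusted p = 0.455) and rho = -0.80 (exact permutation p = 0.0138, adjusted p = 0.304), and r = -0.69 without the 2 farthest libraries. The most negative pair, Contig228308DeNovoAssembly and Contig194495DeNovoAssembly at r = -0.81, rests on the father: over the 8 sons r was -0.09.

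Small RNA from buds of the parents was counted on the same contigs, in 1 library each, and was not used by the rule. Small RNA regulates by base pairing, and the contig it is counted on can be its source or its target; both lie on the same letters, so the table does not tell them apart. The father's library held 14168901 counts and the mother's 19315399. Of the 41 members, 36 had small RNA in the father, 34 in the mother and 3 in neither. Members with small RNA in the mother thus were 82.9% of the list, although 32 members had no mRNA count in any female. Small RNA in the mother was found on 77.4% of all contigs with mRNA in the files and on 90.7% of those that met the count parts of the rule, so the members lay between these backgrounds.

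Summed over the members, the father had 2095 small RNA counts and the mother 1417. Scaled to the library totals the ratio of father to mother was 2.02 (exact 95% interval 1.88 to 2.16). Over contigs that met the count parts of the rule it was 1.10. Over all contigs it was 1.00, a value that the scaling to library totals nearly fixes. The sum rests on few members. Among the 22 with at least 10 counts over both parents the median ratio was 0.983, with 11 above 1 and 11 below. The interval lay above 1 in 5 of them, below 1 in 1 and spanned it in 16. Among all 168042 contigs with at least 10 counts it lay above 1 in 7.11% and below 1 in 12.2%. Without the members at a ratio of 4 or more, a setting chosen after seeing the data, the summed ratio was 1.44.

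A ratio of at least 4 in the father was found in 2 members, beside 1.73% of 168042 contigs with at least 10 counts, and a ratio of at most 0.25 in 0 members, beside 2.08%. Contig214180DeNovoAssembly, 745 bases, had 440 small RNA counts in the father and 2 in the mother, a ratio of 299.9 (exact 95% interval 82.5 to 2484). Among 36666 contigs with at least 100 small RNA counts, 13 had this ratio or more (0.0355%). Its mRNA was thin, with 2 to 9 counts in each male, 0.720 ± 0.338 CPM (SD, n = 9), and 0 in the females. Its small RNA ratio was the highest among the members with at least 10 counts, on 1 library per sex. Its male mRNA mean was at least 13.2-fold higher than the female floor, and that of Contig413090DeNovoAssembly at least 69.3-fold. Both are lower bounds over the same floor, so they do not rank these contigs by the difference between the sexes.

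Contig201712DeNovoAssembly, 797 bases, had 176 small RNA counts in the father and 15 in the mother, a ratio of 16.0 (exact 95% interval 9.44 to 29.2), reached by 100 of the 36666 contigs (0.273%). Its mRNA level of 0.753 ± 0.615 CPM (SD, n = 9) leaned on male replicate 6, which had 34 counts where the other males had 1 to 7. Contig350312DeNovoAssembly, the third most abundant member in mRNA, carried the most small RNA of all members, 507 counts in the father and 248 in the mother, a ratio of 2.79 (exact 95% interval 2.39 to 3.26). For Contig173884DeNovoAssembly the counts were 255 and 199, a ratio of 1.75 (1.45 to 2.11).

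Other members with much small RNA showed little or no lean to the father. Contig228308DeNovoAssembly had 233 counts in the father and 249 in the mother, a ratio of 1.28 (1.06 to 1.53), while its mRNA had 0 counts in the mother and 1 in the father. Contig202197DeNovoAssembly had 154 and 185 counts, a ratio of 1.13. Contig310707DeNovoAssembly, 1158 bases, had 115 and 169 counts, a ratio of 0.928. For Contig131206DeNovoAssembly, 578 bases, they were 32 and 42, a ratio of 1.04. Per length the members carried a median of 21.2 small RNA counts per kilobase over both parents, beside 14.1 in contigs that met the count parts of the rule and 12.8 in all contigs.

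**Figure D5:**
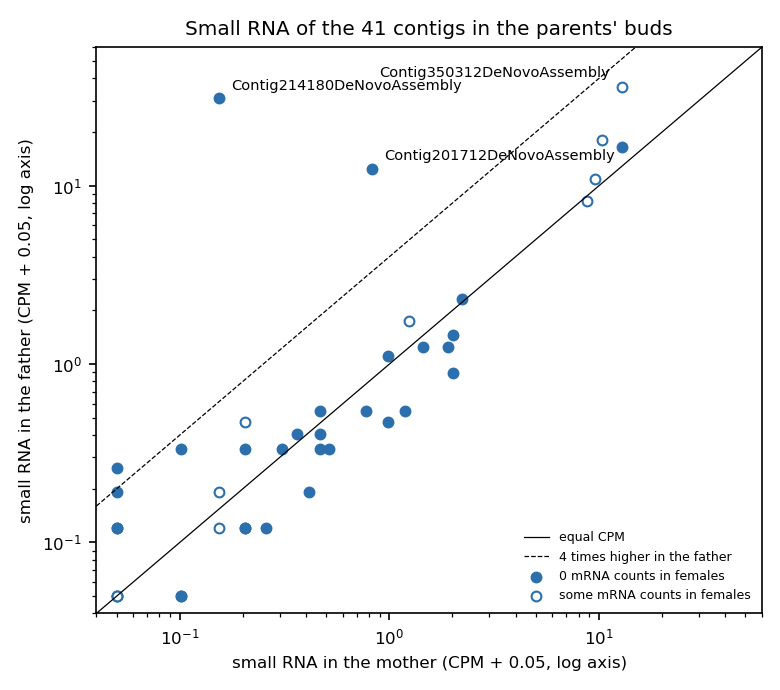
Small RNA level of the 41 contigs in the father against the mother (CPM + 0.05, both axes log), filled where no female had an mRNA count. Most points lie along the line of equal CPM, and Contig214180DeNovoAssembly and Contig201712DeNovoAssembly lie above the dashed line of 4 times higher in the father.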

How the data were processed

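Bud mRNA of 20 trees and bud small RNA of the 2 parents were compared. For each library the authors deposited raw counts of reads on contigs assembled without a genome. Among tools, DESeq 1.14, R 3.0.1 and BWA are listed in the submitters' processing notes. How reads with several matches were counted, and whether by strand, is not given in the sources used here, so contigs of near-identical or overlapping genes may share reads. The 2 libraries of flower small RNA were not used here.

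Counts were divided by the column total to give CPM, and log2(CPM + 0.5) was used for correlations. Males were tested against females, and the father against the sons, with edgeR 4.0.16 (limma 3.58.1, R 4.3.3) robust quasi-likelihood fits on counts with TMM factors. The former used filterByExpr and the latter at least 15 counts over males, and a contig was called at a Benjamini-Hochberg adjusted p under 0.05. SEs of log2 changes were derived as the change over the root of the F statistic. DESeq2 1.42.0, RLE factors, other filters, other limits of the rule and left-out libraries were alternatives. Correlations were tested over all 362880 pairings of 9 libraries (scipy 1.17.1). Ratios of small RNA have exact conditional 95% intervals. The rule and both edgeR fits were tested on simulated data.

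Trees are separate individuals, and replicate numbers follow accession order and pair nothing. Named contigs are the 12 members of highest male CPM, the 4 further members of highest small RNA count, members called between father and sons, the contigs nearest the limit and the 5 highest mirror contigs. Members, rules and lists were chosen with earlier results of these data known.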

Additional observations from a re-analysis of the deposited data

Results flagged for a closer look

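In 32 groups of values, 11 had a sample farther from the others than the spread within its group would usually give. For normally distributed values chance gives about 1 such group in 20. Several groups hold levels near 0 or small whole numbers, where that rate need not hold, so the number is not read as an excess. Among males, Contig333146DeNovoAssembly stood at 66.5 CPM in replicate 1, against 23.2 to 40.3 CPM in the other 8. Contig252397DeNovoAssembly stood at 3.17 CPM in the same tree, against 0.146 to 1.37 CPM in the others. Contig194495DeNovoAssembly stood at 3.95 CPM in replicate 10, the father, against 0.447 to 1.44 CPM in the sons. Contig201712DeNovoAssembly stood at 2.22 CPM in replicate 6, against 0.172 to 0.895 CPM elsewhere.

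Among females, Contig202197DeNovoAssembly stood at 1.94 CPM in replicate 6 with the others at 0 to 1.01 CPM. Contig350312DeNovoAssembly stood at 0.806 CPM in replicate 5 with the others at 0 to 0.284 CPM. Contig217628DeNovoAssembly stood at 1.50 CPM in replicate 7 with the others at 0 to 0.620 CPM. The high female was a different tree each time. Female replicate 2 had a count on 4 members, where the others had 2 or 3. In male replicate 6 the mirror contigs summed to 0.653 CPM, against 0 to 0.172 CPM in the other males. Leaving that library out gave 41 mirror contigs, where leaving out another male gave 11 to 17. Leaving out female replicate 10, the mother, gave 60 contigs nearly confined to males, where leaving out a daughter gave 42 to 50.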

How the results depend on the processing

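The male list of 41 kept within 1.5 times its size under most alternatives: 34 and 61 contigs with a limit of 1% or 10% on the female share, 32 with 0 female counts, 48 with at least 10 counts over males and 57 in progeny alone. It held 18 contigs with a count required in every male, 67 with 6 of 9 males, 23 with at least 30 counts, 11 with at least 90, and 9 with at least 90 and male replicate 6 left out. The mirror list of 9 held 2 contigs with a limit of 1%, 39 with 10%, 2 with 0 male counts, 0 with a count in every female, 19 with 7 of 10 females, 15 with at least 10 counts, 2 with at least 30, 0 with at least 90, 3 with at least 90 and male replicate 6 left out, and 30 with a depth-scaled minimum of 11.2 counts and 7 of 10 females. Leaving out 1 library at a time gave 37 to 60 contigs on the male list and 5 to 41 on the mirror list. The mirror list moved by over 1.5 times without male replicate 2, 3, 6, 7, 8 or 10 or female replicate 1 or 10: it held 41 without male replicate 6, 5 without female replicate 10, and 6 to 17 without any of the others. Members called between the sexes, on the values that chose them, were 6, and 24 of 81 contigs called higher in males with no filter, when 41 rather than 6 members were tested; leaving out libraries gave 6 to 7. Members called higher in the father were 1, and 0 with no filter; members called in either direction stayed at 1 with each son left out in turn. The small RNA ratio of 2.02 was 2.40 over members with 0 female counts, 1.44 without the 2 members at a ratio of 4 or more, 1.25 without the 4 members of highest father count, and below 1, at 0.983, as a median over members with at least 10 counts. The median correlation was -0.03 to -0.01 with 1 male left out. Of the contigs chosen in progeny, 41 were higher in the father, and 19 when at least 3 counts in the father and 0 in the mother were required. The cause of these moves was not tested, and the alternatives at 90 counts, with 7 of 10 females and without named small RNA members were chosen after seeing the data. Depth limits most members: at a mean under 10 counts per male library, 30 of 41 can enter or leave by a few reads. No paired analysis was possible because the labels pair no male with a female tree, and numbers in accession order only name the libraries.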
